A study of Homo sapiens with 20 samples.

Results

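XBP1 and 9 genes of endoplasmic reticulum (ER) quality control were followed by their recovery with the RNA-binding protein IGF2BP3 in stressed HCT116 cells. The members were taken by gene identifier from the gene count table, where they are 10 of 19962 genes. With identifiers given without version, they are XBP1 (ENSG00000100219), HERPUD1 (ENSG00000051108), DNAJB9 (ENSG00000128590), SEL1L (ENSG00000071537), SYVN1 (ENSG00000162298), EDEM1 (ENSG00000134109), SDF2L1 (ENSG00000128228), CRELD2 (ENSG00000184164), MANF (ENSG00000145050) and DNAJC3 (ENSG00000102580). Of these, 8 passed the filter on low counts and were tested, and SDF2L1 and CRELD2 were too low for it. Recovery of HERPUD1, DNAJB9 and XBP1 was 10.0-fold, 4.04-fold and 2.38-fold higher after 4 h of tunicamycin than in the vehicle. After 1 h of tunicamycin none of the 8 tested members passed the test.

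Misfolded proteins in the ER activate the unfolded protein response. One of its sensors, the RNase IRE1, removes a short intron from XBP1 mRNA, and the spliced form encodes a transcription factor that drives genes of ER folding and of ER-associated degradation (ERAD). In ERAD, a membrane ubiquitin ligase built around SYVN1 and SEL1L moves misfolded proteins to the cytosol for the proteasome. IGF2BP3 is an oncofetal protein that binds many mRNAs. Tunicamycin blocks N-linked glycosylation and so causes misfolding in the ER, and arsenite is an oxidative and proteotoxic stress.

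The assay was PAR-CLIP, in which 4-thiouridine in RNA is crosslinked to protein by long-wave UV and leaves T-to-C changes in the reads. HCT116 is a human colorectal carcinoma line, and every library came from a derivative whose labelled genotype is Tet-OsTIR1-PURO. All cells received 100 µM 4-thiouridine for 15 h and 0.15 J/cm2 of 365 nm light. The 5 conditions were PBS at 1:1000 for 2 h, arsenite at 250 µM for 2 h, DMSO at 1:1000 for 4 h, and tunicamycin (TM) at 5 µg/mL for 1 h or for 4 h. The labels name the arsenic compound as arsenate in the treatment field and as arsenite in the titles, and "arsenite" is used here. The TM 1 h group has no vehicle of its own time and was set against the 4 h DMSO group. For each condition 3 libraries were immunoprecipitated with antibody to IGF2BP3 and 1 with control IgG. Nothing in the labels says that the 3 came from separate cultures, so p-values measure only the spread between these libraries.

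Total counts ran from 130478 to 1568406 in the antibody libraries and from 5981 to 17503 in the IgG libraries. By their names, the PBS and arsenite libraries form 1 set, DMSO and TM replicates 1 and 2 form another, and DMSO and TM replicate 3 form a further one that also holds the DMSO and TM IgG libraries. Among epithelial markers, KRT8 had 424 cluster reads, CLDN7 273 and CLDN4 100, while no cluster was assigned to EPCAM, CDH1, KRT18 or KRT19. No cluster was assigned to any of 5 fibroblast, 4 leukocyte or 3 endothelial markers.

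A level below is a CPM value, a count scaled to library size, on a common scale of the 15 antibody libraries. It holds the amount of an mRNA and its binding together. These cannot be told apart here, because total RNA was not analysed here, and gene counts do not separate spliced from unspliced XBP1.

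The places where IGF2BP3 was crosslinked to these mRNAs were read from clusters, which are short stretches with T-to-C changes that were called in each library. The following windows of 30 bases surround the crosslinked centre of the leading region of each gene, and a second region is shown for XBP1, HERPUD1 and DNAJB9, the genes with the largest differences at TM 4 h. They are written 5′ to 3′ on the strand of the gene, and capitals mark matches to 5 short words linked to IGF2BP proteins or to RNA methylation, which are spelled out with their shares after the windows.
XBP1, chr22:28795417-28795446, minus strand: tcagcccctcagagaatgatcaccctgaat
XBP1, chr22:28794845-28794874, minus strand: aagggtCATTagacaaatgtcttgaagtag
HERPUD1, chr16:56940123-56940152, plus strand: tcgagattggttggattGGACctattcagc
HERPUD1, chr16:56940031-56940060, plus strand: gctcctcaagtggttgttaatcctggagcc
DNAJB9, chr7:108573360-108573389, plus strand: ttctattctcactaaatccaactggttgac
DNAJB9, chr7:108574232-108574261, plus strand: tatttttaaatcctgagaaatgtgtgcttt
SEL1L, chr14:81475959-81475988, minus strand: tatgaaatatCATTgccagggtatggctta
SYVN1, chr11:65127804-65127833, minus strand: tactggcaaccACACAactcagggaaagga
EDEM1, chr3:5217262-5217291, plus strand: ctgatACACAcctgctactcttACACAgtg
MANF, chr3:51389118-51389147, plus strand: ggaaaaaacagttcaactgcttactcccaa
DNAJC3, chr13:95792797-95792826, plus strand: tactggctatgtcagcaatatctttttcaa

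Coordinates are on hg38, and exon and UTR boundaries were not used here. Searched on the strand of the cluster, CATT was in 22.9% of 385 member windows and in 20.4% of the 364271 windows of all clusters in these libraries. CATC was in 10.4% against 14.3%, CATA in 9.61% against 11.5%, ACACA in 3.64% against 4.61% and GGAC in 7.27% against 7.22%. At least 1 of these words was in 45.2% of member windows and 47.4% of all windows. The words do not set the member windows visibly apart, and windows of 1 region recur between libraries, so no test was made.

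The promoters of the same genes were searched on both strands for the ER stress element (CCAAT and, after any 9 bases, CCACG), for its second form (ATTGG and, after any 1 base, CCACG) and for the XBP1 element TGACGTGG. The windows were 300 bases from RefSeq (GRCh38.p14), from 250 bases before to 50 after a gene start, and all 10 members matched, XBP1 with 2 starts. The first element was in 27 of 35116 windows (0.0769%), among them those of XBP1 and CRELD2. The second form was in 19 windows (0.0541%), among them those of HERPUD1 and SDF2L1. TGACGTGG was in 256 windows (0.729%) and in no member window. The matches are shown, in capitals, because 4 of the 10 genes carry letters so rare in promoters. A match describes letters and not a bound site.
XBP1, chr22:28800597-28800626, minus strand: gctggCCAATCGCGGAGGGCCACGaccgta
CRELD2, chr22:49918549-49918578, plus strand, match on the opposite strand: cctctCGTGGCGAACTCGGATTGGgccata
HERPUD1, chr16:56932016-56932045, plus strand: cggacgccgATTGGGCCACGttgggagagt
SDF2L1, chr22:21642105-21642134, plus strand, match on the opposite strand: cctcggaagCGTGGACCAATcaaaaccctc

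XBP1, the transcription factor of the IRE1 branch, had levels of 89.3, 138 and 146 CPM in the 3 DMSO libraries. They were 162, 114 and 141.6 CPM at TM 1 h and 306, 357 and 290 CPM at TM 4 h. The PBS libraries had 134, 92.6 and 121 CPM and the arsenite libraries 249, 213 and 238 CPM. All 3 TM 4 h libraries stood above all others, all 3 arsenite libraries came next, and TM 1 h, DMSO and PBS overlapped. The mean ± SD was 318 ± 35.2 CPM (n = 3) at TM 4 h against 124 ± 30.7 CPM (n = 3) in DMSO, and 234 ± 18.3 CPM (n = 3) in arsenite against 116 ± 21.4 CPM (n = 3) in PBS.

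HERPUD1 is an ER membrane protein with a ubiquitin-like domain that helps to assemble the degradation complex. Its level was 47.3, 36.7 and 37.2 CPM in DMSO, 39.4, 21.5 and 30.4 CPM at TM 1 h, and 295, 555 and 316 CPM at TM 4 h. In PBS it was 39.4, 49.9 and 53.5 CPM and in arsenite 369, 297 and 280 CPM. The TM 4 h and arsenite libraries overlapped each other and lay far above the other 9, with replicate 2 of TM 4 h the highest.

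SEL1L, the adaptor that holds SYVN1 in a stable complex, had 102, 135 and 137 CPM in DMSO, 136, 141.8 and 138 CPM at TM 1 h, and 151, 312 and 168 CPM at TM 4 h. Every TM 4 h library was above every DMSO library, and replicate 2 stood well above the other two. In PBS SEL1L had 169, 121 and 180 CPM and in arsenite 117, 123 and 134 CPM, which overlap.

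SYVN1, the ubiquitin ligase also called HRD1, had 65.7, 46.1 and 50.7 CPM in DMSO, 35.0, 27.9 and 52.3 CPM at TM 1 h, and 58.1, 112 and 75.9 CPM at TM 4 h. The DMSO and TM 4 h values overlapped. In PBS it had 62.5, 78.3 and 26.7 CPM and in arsenite 89.7, 95.01 and 95.9 CPM, with all arsenite libraries above all PBS libraries.

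EDEM1, a mannosidase-like protein that passes misfolded glycoproteins to ERAD, had 47.3, 31.4 and 28.5 CPM in DMSO, 52.6, 21.5 and 32.3 CPM at TM 1 h, and 43.1, 52.7 and 37.6 CPM at TM 4 h, all overlapping. It had 13.9, 7.12 and 31.6 CPM in PBS and 64.8, 33.3 and 38.0 CPM in arsenite, with no overlap. The gap between the highest PBS and the lowest arsenite library was small.

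Among the co-chaperones, DNAJB9 serves the chaperone BiP and is also known as a repressor of IRE1. It had 42.0, 58.7 and 52.3 CPM in DMSO, 43.8, 32.2 and 46.6 CPM at TM 1 h, and 194, 264 and 189 CPM at TM 4 h. In PBS it had 57.9, 71.2 and 53.5 CPM and in arsenite 92.1, 86.7 and 111 CPM. As for XBP1, the TM 4 h libraries were above the arsenite libraries, and these were above the other 9.

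DNAJC3, another BiP co-chaperone and an inhibitor of the kinase PERK, had 173, 252 and 280 CPM in DMSO, 193, 232 and 275 CPM at TM 1 h, and 254, 373 and 285 CPM at TM 4 h. It had 252, 249 and 270 CPM in PBS and 192, 240 and 206 CPM in arsenite, where all 3 libraries were below all PBS libraries. Its level was already high in both vehicles.

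MANF, a small ER protein that is retained there and secreted under stress, had 21.0, 19.9 and 23.0 CPM in DMSO, 17.5, 4.30 and 25.7 CPM at TM 1 h, and 51.7, 51.4 and 35.1 CPM at TM 4 h. It had 39.4, 28.5 and 31.6 CPM in PBS and 19.9, 11.7 and 17.1 CPM in arsenite. The groups did not overlap at TM 4 h, where MANF was above DMSO, nor in arsenite, where it was below PBS.

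SDF2L1, a partner of ER co-chaperones, and CRELD2, an ER-resident protein with EGF-like repeats, gave few reads. SDF2L1 had counts of 1, 4 and 3 in DMSO, 1, 3 and 7 at TM 1 h, 7, 9 and 18 at TM 4 h, 2, 0 and 1 in PBS and 0, 3 and 2 in arsenite. On the CPM scale it was at 15.1, 11.9 and 11.3 at TM 4 h against 2.63, 4.19 and 2.38 in DMSO, which do not overlap. At TM 1 h it was at 4.38, 6.45 and 6.65 CPM, also above every DMSO library. Of the tested genes, which do not include SDF2L1, 7.02% were higher without overlap there. Without the filter on low counts the TM 1 h difference was 0.97 ± 0.70 (log2, SE, edgeR adjusted p = 0.86). CRELD2 had counts of 2, 6 and 5 in DMSO, 1, 4 and 5 at TM 1 h, 5, 6 and 10 at TM 4 h, 1, 0 and 1 in PBS and 2, 2 and 2 in arsenite.

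**Figure D1:**
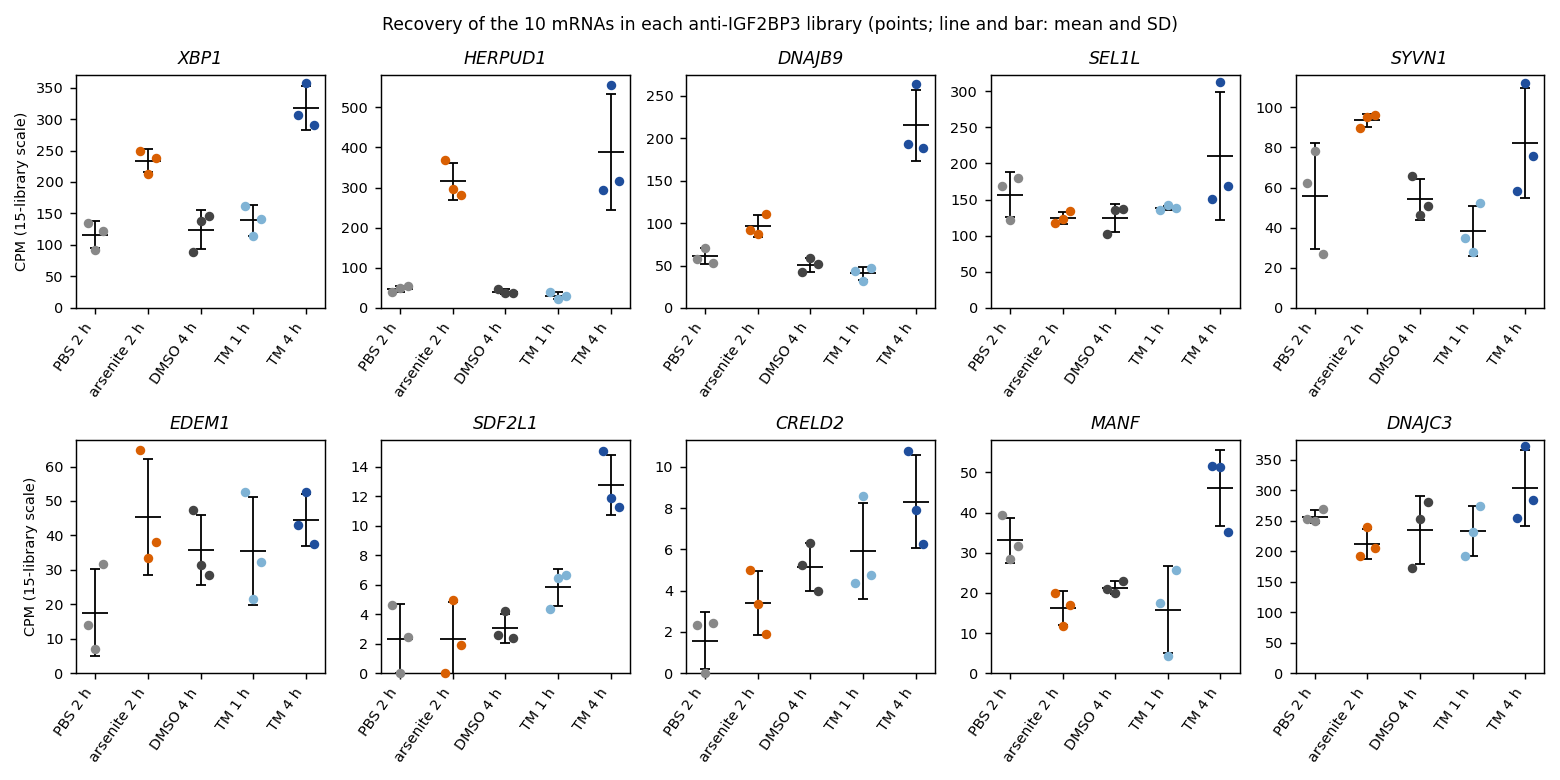
Level of each member (CPM, linear axes from 0, a scale of its own in each panel) in the 15 anti-IGF2BP3 libraries, with points for libraries, a line for the mean of each condition and a bar for its SD. XBP1, HERPUD1 and DNAJB9 are highest at TM 4 h and in arsenite, while the DNAJC3 groups lie close together.

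Differences were tested on the counts with edgeR's quasi-likelihood test, with p-values adjusted over all tested genes by the Benjamini-Hochberg method and called under 0.05. After 1 h of tunicamycin, 0 of the 8 tested members differed from DMSO, where 0.551% of all 8343 tested genes were called. No member had an unadjusted p under 0.05, against 806 genes in all, and DESeq2 and the other alternatives called none. The XBP1 difference was 0.05 on the log2 scale, with an interval of 2 SE each side from -0.25 to 0.34. HERPUD1 was at -0.40 (-1.01 to 0.20) and DNAJB9 at -0.33 (-0.78 to 0.12). The median of the 8 was -0.12, against 0.00 over all genes.

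After 4 h, 6 of the 8 members were higher than in DMSO and 0 were lower, where 2.79% of all genes were called higher and 2.31% lower. The median log2 difference of the 8 was 0.85, and that of all tested genes was 0.00. HERPUD1 rose by 3.33 ± 0.17 (log2, SE, edgeR adjusted p = 1.5e-25), DNAJB9 by 2.01 ± 0.15 (adjusted p = 4e-17) and XBP1 by 1.25 ± 0.12 (adjusted p = 5.2e-13). MANF rose by 1.01 ± 0.27 (adjusted p = 0.013), SEL1L by 0.69 ± 0.15 (adjusted p = 0.00095) and SYVN1 by 0.69 ± 0.19 (adjusted p = 0.019). EDEM1 at 0.40 (-0.08 to 0.88, adjusted p = 0.4) and DNAJC3 at 0.30 (0.08 to 0.53, adjusted p = 0.11) were not called. The groups did not overlap for XBP1, HERPUD1, DNAJB9, SEL1L and MANF, where 10.3% of the tested genes were higher without overlap. Those of SDF2L1 did not overlap either, but SDF2L1 is not among the tested genes behind that share. SDF2L1 and CRELD2 did not pass the filter on low counts in the main fit. Without the filter, SDF2L1 was at 1.90 ± 0.56 (edgeR adjusted p = 0.036) and CRELD2 at 0.55 ± 0.56 (adjusted p = 0.75).

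The calls of SEL1L, SYVN1 and MANF changed when single libraries were left out. Without replicate 2 of TM 4 h, 3 of the 8 members were called, and SEL1L went to 0.33 (adjusted p = 0.22), SYVN1 to 0.46 (adjusted p = 0.26) and MANF to 0.88 (adjusted p = 0.088). SYVN1 and MANF were not called either without replicate 2 of DMSO, at 0.60 (adjusted p = 0.14) and 0.95 (adjusted p = 0.089), or without replicate 3 of DMSO, at 0.67 (adjusted p = 0.1) and 1.09 (adjusted p = 0.053). DESeq2 did not call SEL1L at 0.74 (adjusted p = 0.2) or SYVN1 at 0.66 (adjusted p = 0.24), and it gave MANF, at 1.07, no adjusted p. With robust fitting in edgeR, SEL1L was not called at 0.69 (adjusted p = 0.19). With the library set as a block the same 6 were called, and within the set of replicates 1 and 2 alone 6 were, with DNAJC3 at 0.52 (adjusted p = 0.016) in place of SYVN1 at 0.77 (adjusted p = 0.094). XBP1, HERPUD1 and DNAJB9 kept their calls in all 15 alternatives run on the gene counts.

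TM 4 h and TM 1 h were also compared directly, in the same fit of 9 libraries. The same 6 members were higher at 4 h, where 5.60% of all genes were called higher. The differences were 3.73 ± 0.20 for HERPUD1 (edgeR adjusted p = 3.4e-24), 2.34 ± 0.18 for DNAJB9 (adjusted p = 3.9e-17), 1.21 ± 0.13 for XBP1 (adjusted p = 5.8e-11), 1.22 ± 0.31 for MANF (adjusted p = 0.0043), 0.96 ± 0.22 for SYVN1 (adjusted p = 0.0014) and 0.60 ± 0.16 for SEL1L (adjusted p = 0.0068). EDEM1 at 0.42 and DNAJC3 at 0.31 were not called. This comparison shares its TM 4 h libraries and its fit with the previous one, so the pair is not independent. DESeq2 called 4 members, without SEL1L at 0.59 (DESeq2 adjusted p = 0.23), and it gave MANF, at 1.37, no adjusted p. Robust fitting in edgeR did not call SEL1L either, at 0.60 (edgeR adjusted p = 0.23). Without replicate 2 of TM 4 h, SEL1L went to 0.23 (adjusted p = 0.39), and without replicate 3 of TM 1 h to 0.56 (adjusted p = 0.09). MANF went to 0.85 (adjusted p = 0.077) without replicate 2 of TM 1 h and to 2.27 (adjusted p = 0.0017) without replicate 3 of TM 1 h.

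In arsenite, members were called in both directions in the main analysis. Of the 8 members, 5 were higher and 3 were lower than in PBS, where 17.6% of all 6642 tested genes were called higher and 17.1% lower, 34.8% in all. HERPUD1 rose 6.17-fold, by 2.62 ± 0.19 (log2, SE, edgeR adjusted p = 8.8e-27). XBP1 rose by 0.85 ± 0.15 (adjusted p = 2.5e-06), DNAJB9 by 0.69 ± 0.23 (adjusted p = 0.011), SYVN1 by 0.83 ± 0.24 (adjusted p = 0.0041) and EDEM1 by 0.98 ± 0.38 (adjusted p = 0.033). SEL1L changed by -0.46 ± 0.16 (adjusted p = 0.018), DNAJC3 by -0.36 ± 0.13 (adjusted p = 0.022) and MANF by -1.17 ± 0.40 (adjusted p = 0.015). Counts behind the MANF and EDEM1 values were low. MANF had counts of 17, 4 and 13 in PBS and 8, 7 and 18 in arsenite. EDEM1 had counts of 6, 1 and 13 in PBS and 26, 20 and 40 in arsenite. The groups did not overlap for the 5 that were higher, against 26.7% of all genes higher without overlap, nor for MANF and DNAJC3 among the lower ones, against 16.3%. The calls of XBP1 and HERPUD1 held in all 13 alternatives run on the gene counts. The other 6 lost theirs in some. DESeq2 called XBP1 and HERPUD1 alone, and so no lower member. It gave SEL1L -0.46 (DESeq2 adjusted p = 0.14), DNAJC3 -0.36 (adjusted p = 0.14) and MANF -1.17 (adjusted p = 0.099). Without replicate 1 of PBS 3 of the 8 were called by edgeR, all higher, without replicate 3 of PBS 4, and without replicate 3 of arsenite 5. In edgeR without replicate 3 of PBS, SYVN1 went to 0.42 (edgeR adjusted p = 0.26) and EDEM1 to 1.70 (adjusted p = 0.011). Without replicate 1 of PBS EDEM1 went to 0.66 (adjusted p = 0.28).

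**Figure D2:**
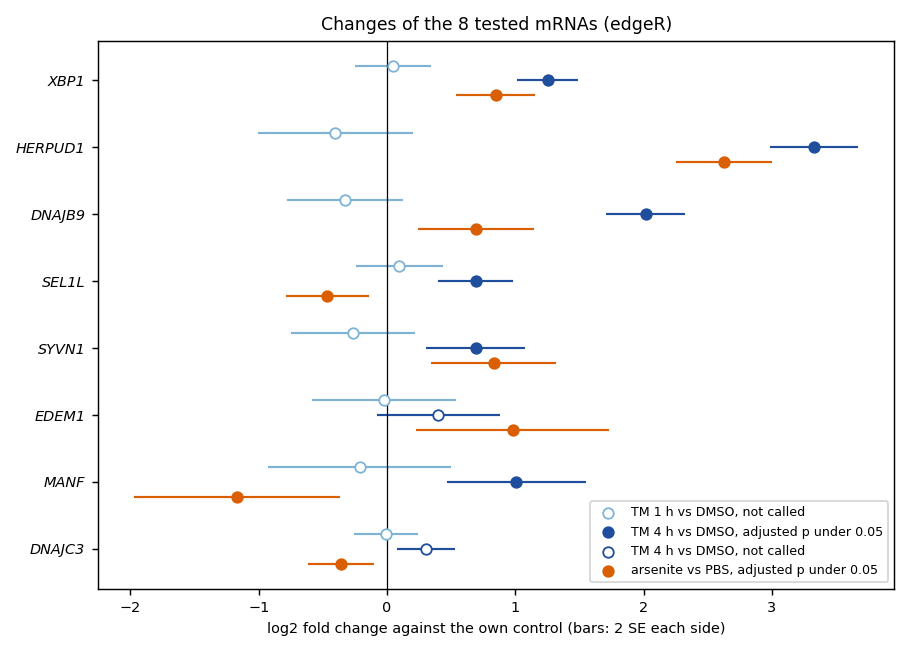
Log2 difference of each tested member in the TM 1 h, TM 4 h and arsenite comparisons, each against its vehicle, with bars of 2 SE each side and filled points for called differences. HERPUD1, DNAJB9 and XBP1 lie to the right of 0 at TM 4 h and in arsenite, and SEL1L, MANF and DNAJC3 lie on opposite sides of 0 in the 2 stresses.

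Whether the stresses differed was tested as the arsenite difference minus the TM 4 h difference, in 1 fit of 12 libraries. It was called for 4 of the 8 members, all lower in arsenite, where 9.74% of all 7796 tested genes were called lower. The difference was -2.19 ± 0.46 for MANF (log2, SE, edgeR adjusted p = 0.00022), -1.32 ± 0.29 for DNAJB9 (adjusted p = 0.00049), -1.16 ± 0.24 for SEL1L (adjusted p = 0.00021) and -0.66 ± 0.18 for DNAJC3 (adjusted p = 0.005). DNAJB9 thus rose in both stresses and less in arsenite. For XBP1 it was -0.41 (-0.81 to 0.00, adjusted p = 0.16) and for HERPUD1 -0.70 (-1.41 to 0.01, adjusted p = 0.17), and neither was called. SYVN1 at 0.13 (-0.52 to 0.79) and EDEM1 at 0.57 (-0.34 to 1.49) were not called either. The stresses differ in library set, vehicle and duration as well as agent, and these cannot be told apart.

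**Figure D3:**
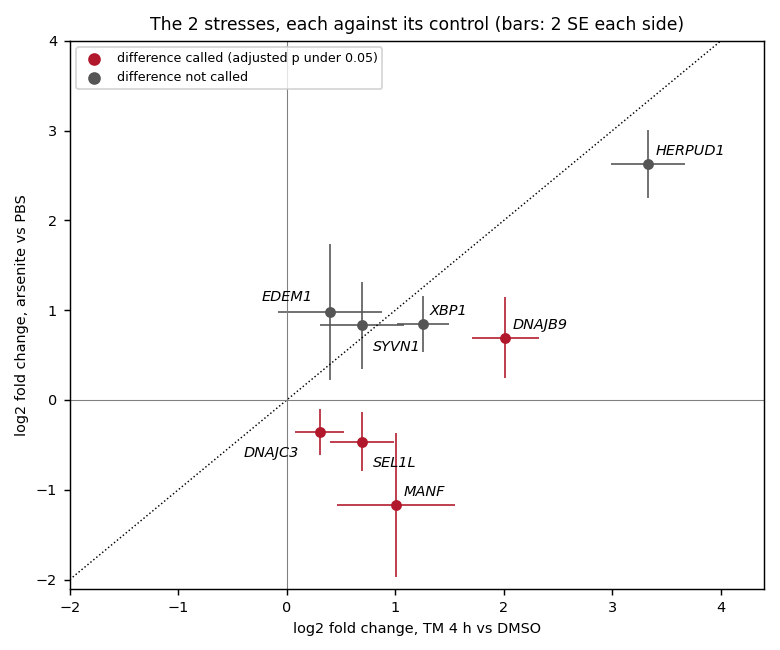
Log2 difference of arsenite against PBS (vertical axis) set against that of TM 4 h against DMSO (horizontal axis) for the 8 tested members, with bars of 2 SE each side and a dotted line of equal change. DNAJB9, SEL1L, MANF and DNAJC3, in red, are below the line and had a called difference between the stresses.

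The IgG libraries give the background of the method. All 5 together held 10 counts of XBP1, 9 of HERPUD1, 6 of DNAJB9, 13 of SEL1L, 3 of SYVN1, 1 of EDEM1, 2 of SDF2L1, 1 of CRELD2, 0 of MANF and 10 of DNAJC3, in a total of 52256 counts. As CPM of the summed totals, XBP1 was at 191 in IgG (95% exact Poisson interval 91.8 to 352, counting error only) and at 201 with the antibody. HERPUD1 was at 172 (78.8 to 327) against 183, and DNAJC3 at 191 (91.8 to 352) against 258. SYVN1, EDEM1 and MANF were also lower in IgG. SEL1L was higher in IgG, at 249 (132 to 425) against 154, and so was DNAJB9, at 115 (42.1 to 250) against 104. SDF2L1 and CRELD2 were higher in IgG as well, on 2 and 1 counts. Of the 9 HERPUD1 counts 7 came from the TM 4 h IgG library, and of the 10 XBP1 counts 5 did. In the test of antibody against IgG with all 20 libraries, 0 of the 8 members were called by edgeR, where 9.26% of all 7592 tested genes were, 602 higher and 101 lower. With library totals in place of TMM factors that split was 8 higher and 130 lower, and 0 members were called by DESeq2 too. DNAJC3 and MANF had an unadjusted p under 0.05. At this IgG depth the gene counts did not separate these mRNAs from the IgG background, and the part of such background in the changes under stress was not tested.

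The cluster lists hold no cluster in a member in any IgG library, but their depth is far below that of the antibody libraries. In the antibody libraries 430 clusters with 6478 reads fell in 8 of the 10 genes, and none fell in SDF2L1 or CRELD2. Merged across libraries they formed 77 regions, of which 7 were seen in at least 10 libraries and 30 in 1 library. The number of clusters moved with depth, and replicate 2 of PBS had none in a member. Calls of a region in 1 condition and not in another are therefore descriptions, and the share of T-to-C events was 5.84% to 8.88% in member clusters and 7.58% to 8.81% in all clusters of a library.

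On XBP1 (chr22:28794560-28800569, minus strand) all cluster reads lay within the last 2000 bases of the gene. The leading region, chr22:28794985-28795460, held 72.3% of its cluster reads and was seen in 14 of 15 libraries. It had 18, 77 and 119 reads in DMSO, 14, 15 and 114 at TM 1 h, 87, 173 and 259 at TM 4 h, 26, 0 and 25 in PBS and 76, 73 and 181 in arsenite. The next, chr22:28794632-28794962, was seen in 11 libraries. The second had 85 reads in DMSO, 40 at TM 1 h, 259 at TM 4 h, 82 in arsenite and 0 in PBS, summed over 3 libraries and not scaled for depth. Both regions were thus seen in DMSO and at TM 4 h, and the second was not called in PBS.

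HERPUD1 (chr16:56932142-56944864, plus strand) had 11 regions. All 11 were seen at TM 4 h, 7 in arsenite, 1 in DMSO, 1 in PBS and 0 at TM 1 h. The leading region, chr16:56940116-56940298, lies 4566 bases before the end of the gene and had 0, 12 and 7 reads in DMSO, 0 in each TM 1 h library, 55, 130 and 182 at TM 4 h, 6, 0 and 0 in PBS and 48, 75 and 128 in arsenite. The neighbouring region, chr16:56939885-56940060, was seen only at TM 4 h, with 15, 65 and 66 reads, and in arsenite, with 9, 21 and 43 reads. In the last 2000 bases lay 30.4% of the HERPUD1 cluster reads. Reads in clusters came to 94.9% of the HERPUD1 gene count at TM 4 h and 79.7% in arsenite, against 19% in DMSO, 13.04% in PBS and 0% at TM 1 h. The summed counts were 1062 and 621, against 100, 46 and 51 in the same order. This share was higher at TM 4 h than in DMSO for every other member with clusters too. It went from 12.8% to 50.6% for SYVN1 and from 47.1% to 78.3% for DNAJB9. How much of this comes from clusters lost at low counts was not tested.

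DNAJB9 (chr7:108569874-108574850, plus strand) had 7 regions, all at TM 4 h, 2 of them also in arsenite and in DMSO, and all its cluster reads lay in the last 2000 bases. The region with most reads, chr7:108574001-108574379, had 0, 27 and 26 reads in DMSO, 28, 96 and 127 at TM 4 h and 5, 0 and 48 in arsenite. The other main region, chr7:108573215-108573470, had 0, 7 and 5 reads in DMSO, 18, 43 and 64 at TM 4 h and 5, 9 and 27 in arsenite. In both regions every TM 4 h library had more reads than every DMSO library, on counts not scaled for depth.

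Among the others, DNAJC3 had 20 regions, and 85.8% of its cluster reads were in regions that reach into the last 2000 bases. Its leading region, chr13:95792368-95792999, was seen in 13 libraries and held 35.8% of these reads. That region ends 1989 bases before the end of the gene, so nearly all of it lies outside the last 2000 bases. SEL1L had 17 regions, but 2.59% of its cluster reads in the last 2000 bases, and its leading region, chr14:81475935-81476093, lies 4388 bases before the end of the gene. SYVN1 had 12 regions and MANF 5, led by chr11:65127788-65127935 and chr3:51389087-51389311. EDEM1 had 1 cluster with 5 reads, at chr3:5217262-5217306.

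**Figure D4:**
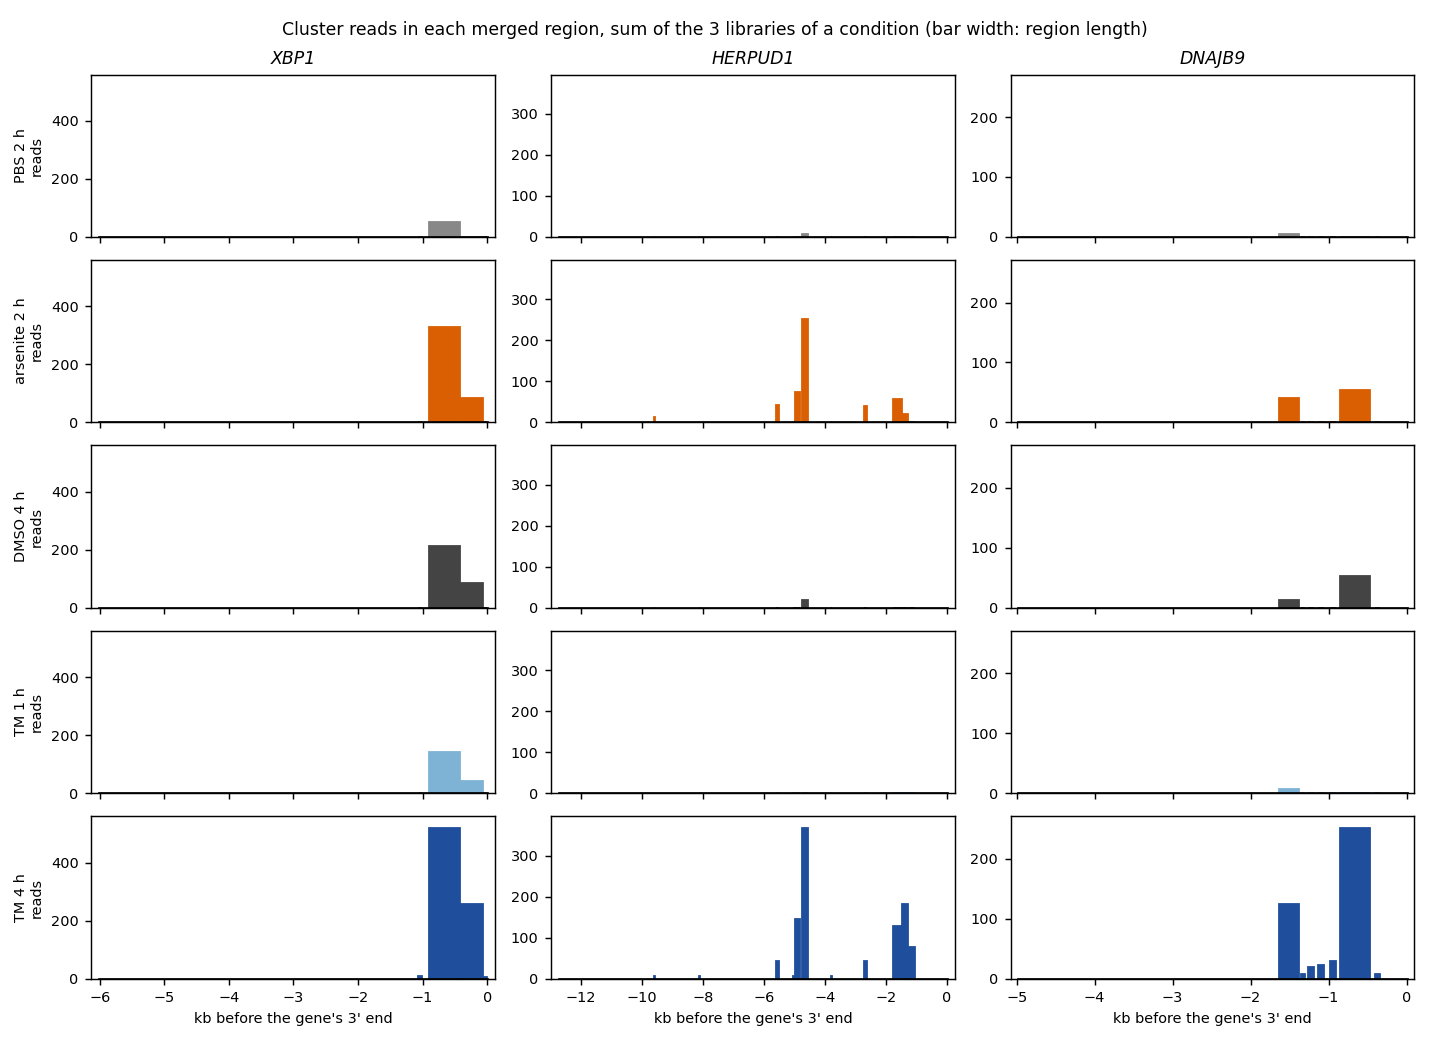
Reads in each merged cluster region of XBP1, HERPUD1 and DNAJB9 (vertical axes from 0, summed over the 3 libraries of a condition and not scaled for depth) against distance before the 3′ end of the gene in kb, with a row for each condition and bars as wide as the region. The 2 main XBP1 regions lie in the last kb, while HERPUD1 has many regions at TM 4 h and in arsenite and few reads elsewhere.

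Other genes of the ER stress response were read from cluster reads summed per gene, since the identifiers of the count table could be paired with symbols for the members only. This measure was chosen after seeing the data, and it called 9 of 3944 genes (0.228%) at TM 4 h and 283 of 2244 (12.6%) in arsenite. At TM 4 h, edgeR called 2 of the 6 members that could be tested, HERPUD1 at 5.79 (adjusted p = 3.9e-05) and XBP1 at 1.54 (adjusted p = 0.01). DNAJB9 at 3.05 (adjusted p = 0.29), MANF at 1.70 (adjusted p = 1), SEL1L at 1.25 (adjusted p = 1) and DNAJC3 at 0.56 (adjusted p = 1) were not called. Of 10 tested ER chaperones 2 were higher, HSPA5, which encodes BiP, at 2.62 (adjusted p = 3.9e-05) and HSP90B1 at 2.64 (adjusted p = 5.5e-05). Of 5 tested genes of the PERK branch 3 were higher, TRIB3 at 1.94 (adjusted p = 0.007), SESN2 at 1.496 (adjusted p = 0.008) and DDIT3 (adjusted p = 0.007). DDIT3 had no cluster in DMSO and 37, 112 and 177 reads at TM 4 h. None of 12 other ERAD genes, 14 translocation and transport genes or 3 stress sensors was called at TM 4 h, and none of them had an unadjusted p under 0.05. These were the genes that could be tested, of 31, 22 and 10 listed. Errors were wide for some, as for DERL2 at 1.67 ± 1.56 (log2, SE) and ERLEC1 at 1.33 ± 1.43, and narrower for others, as for NPLOC4 at -0.03 ± 0.21. The medians were 0.73 for the chaperones, 1.94 for the PERK branch, 0.03 for the ERAD genes and 0.12 for the transport genes, against 0.02 over all genes.

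In arsenite the same measure called 1 of 4 tested members, HERPUD1 at 5.10 (edgeR adjusted p = 0.0073). XBP1 at 1.94 (adjusted p = 0.073), SEL1L at -0.05 (adjusted p = 0.99) and DNAJC3 at 0.0173 (adjusted p = 0.99) were not called. None of 7 other ERAD genes that could be tested, of 31 listed, and none of 3 sensors, of 10 listed, was called. Of these, 1 ERAD gene and 1 sensor, ATF6 at 3.50 (adjusted p = 0.094), had an unadjusted p under 0.05. Of 8 chaperones HSP90B1 was higher at 4.35, and CANX at -0.86, P4HB at -1.40 and PPIB at -1.55 were lower. Of 10 transport genes 3 were higher, SEC31A at 3.07 and SEC23B and KDELR3, which had no cluster in PBS. Of 3 tested genes of the PERK branch SESN2 was higher at 1.80. The medians were -0.51 for the chaperones, 0.36 for the PERK branch, 0.46 for the ERAD genes and 0.38 for the transport genes. Over all genes the median was 0.32, so these values are not centred on 0. Clusters are lost at low depth, and total counts were 130478 to 423906 in PBS against 414033 to 1098488 in arsenite, so a gene without a PBS cluster has only a bound there.

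Across the 15 antibody libraries the XBP1 level followed that of HERPUD1 (Pearson r = 0.884 of log2 CPM) and DNAJB9 (r = 0.875), which ranked among the 5 genes most like it of 3337. The most like gene of all, for XBP1 (r = 0.915) and for HERPUD1 (r = 0.968), was ENSG00000130766_5. SEL1L ranked 409 for XBP1 (r = 0.502) and DNAJC3 819 (r = 0.353). These values describe libraries that share their conditions and depth.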

How the data were processed

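The members and gene lists were chosen with earlier results of these data known. Per the labels, 15 anti-IGF2BP3 and 5 IgG PAR-CLIP libraries were grouped by treatment and antibody. The authors deposited raw counts per gene and, for each library, a cluster list with read counts. The submitters' processing notes name bcl2fastq 2.20.0.422, UMI-tools 1.1.1, Trimmomatic 0.30, Bowtie 0.12.7, featureCounts 2.0.1, hg38 and GRCh38.p13. The cluster caller, annotation and strand setting are not given in the sources used here, so overlapping genes cannot be told apart. The IgG cluster lists of PBS and arsenite carry names that are the reverse of their attached samples, and the attachment was followed. Clusters in promoter windows had the letters of the RefSeq promoters in 539 of 539 cases.

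Genes were tested with edgeR 4.0.16 (R 4.3.3) after filterByExpr with TMM factors, two-sided, and DESeq2 1.42.0 was an alternative. The tests ran on simulated data first. CPM used TMM factors of the 15 antibody libraries, and log2 CPM a prior count of 2. Named genes are the 10 members, epithelial markers, called genes of the fixed lists and the genes most like XBP1 and HERPUD1. DERL2, ERLEC1, NPLOC4 and ATF6 were not called and are named outside this rule. The planned list tests in the count table were replaced by cluster reads per gene, since 71.1% of 412123 clusters could be assigned to 1 RefSeq gene while identifiers could not be paired with symbols. Regions are clusters merged where they overlap on a strand.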

Additional observations from a re-analysis of the deposited data

Results flagged for a closer look

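The arsenite change differed from the TM 4 h change, by a test of the difference itself (edgeR, log2), for MANF by -2.19, DNAJB9 by -1.32, SEL1L by -1.16 and DNAJC3 by -0.66. Library set, vehicle and duration differ with the agent. The MANF value rests on low counts, 17, 4 and 13 in PBS.

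The TM 4 h level differed from the TM 1 h level (edgeR, log2) for HERPUD1 by 3.73, DNAJB9 by 2.34, MANF by 1.22, XBP1 by 1.21, SYVN1 by 0.96 and SEL1L by 0.60. Without replicate 2 of TM 4 h the SEL1L value was 0.23 (adjusted p = 0.39), and without replicate 2 of TM 1 h the MANF value was 0.85 (adjusted p = 0.077). SEL1L was also not called by DESeq2, at 0.59 (DESeq2 adjusted p = 0.23), or with robust fitting in edgeR, at 0.60 (edgeR adjusted p = 0.23). Dixon's test for outlying samples was not applied to these groups of 3.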

How the results depend on the processing

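Of the members called at TM 4 h against DMSO, 6 in the main analysis, DESeq2 called 3, and leaving out 1 library gave 3 to 7. The 7 were called without replicate 1 of DMSO and hold a member that did not pass the filter in the main analysis. For arsenite against PBS, 8 in the main analysis, DESeq2 called 2, no filter on low counts gave 5, a mean count of at least 50 left 4 members to test and all 4 were called, and leaving out 1 library gave 3 to 7. With cluster reads per gene, an alternative chosen after seeing the data, the arsenite difference of DNAJC3 turned to 0.0173, XBP1 and SEL1L lost their arsenite calls, and DNAJB9, SEL1L and MANF lost their TM 4 h calls. The cause was not tested. The difference between the stresses was called for 3 to 4 members over 18 alternatives, SEL1L being lost with robust fitting (adjusted p = 0.056).

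Same-number deviations correlated at -0.116 to 0.0849. Deviations from means of 3 libraries of unequal depth cannot decide whether replicate numbers pair the libraries. The numbers do follow the library sets of DMSO and TM, where replicate 3 stands apart. With the replicate number as a block, 0 members were called at TM 1 h, 6 at TM 4 h against DMSO, 6 against TM 1 h and 7 in arsenite, where MANF was not called (adjusted p = 0.057). The block called 43, 371, 902 and 2111 genes in all.

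Counts over all genes also moved. TM 1 h had 46, with DESeq2 6, leaving out 1 library 13 to 41, and within the set of replicates 1 and 2 16. TM 4 h had 426, against 152, 178 to 431, and 129. TM 4 h against TM 1 h had 967, against 491, 523 to 859, and 488. Arsenite had 2310, against 1233 by DESeq2 and 1380 at a mean count of at least 50. The difference between stresses had 1427, against 854 by DESeq2, and antibody against IgG 703, against 138 with library totals and 261 by DESeq2. Merged member regions numbered 75 to 101 around 77. Total counts of 5981 to 17503 in the IgG libraries limit what could be detected against IgG.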
